A study of Caenorhabditis elegans with 2 samples.

Results

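The distal peaks of the tagged transcription factor DMD-8 are the conservative peaks whose summit, the base of highest enrichment, lay outside every protein-coding gene, outside the span from 1000 bp upstream to 200 bp downstream of any protein-coding 5′ end, and more than 200 bp from every tRNA, snoRNA and snRNA gene. They were chosen from the authors' conservative peak list, made from both replicates, by the position of the summit, and they number 255 of 1537 peaks (16.6%, exact 95% interval 14.8% to 18.6%). The sequence that obeys the same rule makes up 24.9% of the nuclear genome. A peak was in the list because of its enrichment, so the signal values below describe the members and support nothing by themselves.

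Chromatin immunoprecipitation with an antibody against GFP was done on whole Caenorhabditis elegans L4 larvae of strain OP775, 48.5 hours old and synchronised by starving L1 larvae hatched after bleaching. Both biological replicates, which form the single group, carried wgIs775, a fosmid transgene with dmd-8 joined to TY1, EGFP and 3xFLAG tags plus unc-119(+), in the unc-119(tm4063) background. The tagged protein is thus an added copy, whole animals mix all tissues, and a list from worms without the tag was not analysed here. The labels do not say how the cultures of the replicates were kept apart, and the read depth is unknown from peak lists.

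DM domain proteins, named after Doublesex of flies and MAB-3 of worms, are transcription factors known for their part in sexual differentiation. Sequence far from coding genes can hold enhancers, genes for noncoding RNAs, dispersed copies of old genes and tandem repeats, in which a short unit follows itself many times. Genes of tRNAs are read by RNA polymerase III from a promoter inside the gene, made of an A box and a B box to which the factor TFIIIC binds, and copies that no longer make a tRNA can keep both boxes.

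The sequences that many distal summits shared are shown first, each as 100 bp centred on the summit of a member (assembly ce11, reference sequence of the same assembly from RefSeq), as examples from chromosomes II, III, IV, V and X. Only members whose 100 bp held the marked letters on the strand shown were taken, so members of higher signal can be missing. The first set holds members with an A box core (TGGCNNANT) followed on the same strand by a B box core (GTTCNANNC), both in capitals, and after them the annotated tRNA pseudogene Y94H6A.t1, which lies at the strongest distal peak.

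chrV:1561338-1561437 (+ strand): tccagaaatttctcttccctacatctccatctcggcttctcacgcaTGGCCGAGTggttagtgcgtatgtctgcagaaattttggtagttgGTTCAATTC
chrIII:2030907-2031006 (- strand): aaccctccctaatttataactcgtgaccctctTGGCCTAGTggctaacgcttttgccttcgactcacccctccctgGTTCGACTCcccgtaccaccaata
chrII:4928488-4928587 (- strand): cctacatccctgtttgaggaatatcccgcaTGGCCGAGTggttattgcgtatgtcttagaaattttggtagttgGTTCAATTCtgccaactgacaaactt
chrIII:9849287-9849386 (+ strand): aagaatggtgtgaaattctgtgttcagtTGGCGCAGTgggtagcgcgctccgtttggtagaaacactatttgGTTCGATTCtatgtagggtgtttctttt
chrIV:2740214-2740286 (+ strand): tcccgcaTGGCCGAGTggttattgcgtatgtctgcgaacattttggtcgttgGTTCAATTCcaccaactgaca

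In 2 of these 4 members, on V and II, both cores were letter for letter those of the pseudogene. The second set comes from repeated units. Its first 3 members, of which that on X fell under the limit set below for a tandem repeat (75.6% match), share a unit of 40 bp and have TTCNNGAA in capitals, the inverted pair of sites found in heat shock elements. In the next 4 the capitals mark the first period of best match, of 90, 30, 25 and 54 bp in that order. Such a period can hold several copies of a shorter unit.

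chrIV:15059292-15059391 (+ strand): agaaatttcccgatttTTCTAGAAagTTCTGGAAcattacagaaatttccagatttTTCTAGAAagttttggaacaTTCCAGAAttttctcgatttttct
chrIV:13464050-13464149 (+ strand): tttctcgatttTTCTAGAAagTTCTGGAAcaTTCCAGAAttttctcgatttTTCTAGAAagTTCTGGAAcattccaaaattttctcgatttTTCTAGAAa
chrX:1375265-1375364 (+ strand): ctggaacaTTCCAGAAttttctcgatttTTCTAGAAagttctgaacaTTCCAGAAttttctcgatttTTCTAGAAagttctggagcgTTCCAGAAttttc
chrII:695227-695326 (+ strand): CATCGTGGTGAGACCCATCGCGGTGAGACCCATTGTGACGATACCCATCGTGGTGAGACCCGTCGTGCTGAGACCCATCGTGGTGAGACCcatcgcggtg
chrII:12651341-12651440 (+ strand): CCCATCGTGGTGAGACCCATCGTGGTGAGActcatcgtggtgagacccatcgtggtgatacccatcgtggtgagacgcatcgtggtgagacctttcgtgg
chrIII:2499424-2499523 (+ strand): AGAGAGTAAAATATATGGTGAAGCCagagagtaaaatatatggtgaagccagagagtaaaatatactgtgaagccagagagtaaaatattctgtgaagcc
chrV:14756703-14756802 (- strand): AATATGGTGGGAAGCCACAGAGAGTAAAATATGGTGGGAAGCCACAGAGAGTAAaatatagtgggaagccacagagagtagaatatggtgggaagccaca

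The third set holds 3 of 4 members on chromosome V that share most of their sequence, with bases in capitals where a stretch of 12 bp is held by all 4. The member that follows resembled a snoRNA gene, and the last 3 have GAGAGA in capitals.

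chrV:7548671-7548770 (+ strand): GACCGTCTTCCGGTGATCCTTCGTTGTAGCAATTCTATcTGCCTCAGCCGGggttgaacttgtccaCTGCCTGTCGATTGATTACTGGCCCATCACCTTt
chrV:15767572-15767671 (+ strand): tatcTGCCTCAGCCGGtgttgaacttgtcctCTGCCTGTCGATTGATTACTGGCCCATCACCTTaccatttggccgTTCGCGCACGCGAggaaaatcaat
chrV:13239898-13239997 (- strand): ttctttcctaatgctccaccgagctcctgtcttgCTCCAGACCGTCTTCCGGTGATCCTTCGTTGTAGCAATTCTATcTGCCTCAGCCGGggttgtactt
chrII:7042263-7042362 (+ strand): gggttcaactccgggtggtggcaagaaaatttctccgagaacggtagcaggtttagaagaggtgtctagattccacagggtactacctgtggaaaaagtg
chrV:11076524-11076623 (+ strand): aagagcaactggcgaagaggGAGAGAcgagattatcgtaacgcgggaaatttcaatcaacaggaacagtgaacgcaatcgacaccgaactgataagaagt
chrIII:8865541-8865640 (+ strand): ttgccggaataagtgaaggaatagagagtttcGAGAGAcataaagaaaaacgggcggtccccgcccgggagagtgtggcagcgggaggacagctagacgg
chrII:2974017-2974116 (+ strand): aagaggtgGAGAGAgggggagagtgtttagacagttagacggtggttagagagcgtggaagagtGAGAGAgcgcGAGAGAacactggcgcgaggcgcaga

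The distal peaks were mostly of middling signal. Their signal value, which is the authors' own and ranks peaks within a list only, had a median of 88.2 (lowest 2.53, highest 335), against 90.9 (2.13 to 646) over the other 1282 conservative peaks. The highest member ranked 12 of 1537. In the replicates' own ranked lists the members had a median of 47.8 in replicate 1 (252 members with an overlapping peak) and of 43.4 in replicate 2 (249 members). Across the 246 members with a value in both lists of ranked peaks, Spearman's rho was 0.44. The same rho was 0.15 over promoter peaks, 0.15 over other genic peaks (inside a coding gene but in no coding exon), −0.18 over coding exon peaks and 0.71 over peaks at small RNA genes. Peaks of a list share libraries and depth, and these correlations are descriptions. The list was also cut on agreement between the replicates, which can by itself affect rho. Differences in rho between classes are therefore not read as differences in how well peaks repeat.

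The share of distal peaks found in both replicates' own lists was near that over all conservative peaks. Of the 255 members, 47 (18.4%, exact 95% interval 13.9% to 23.7%) overlapped a peak of both replicates' own thresholded lists by at least 1 bp, where the share over all 1537 conservative peaks was 22.7%. A peak in a single replicate's list was seen for 48 members, of which 25 were in that of replicate 1 and 23 in that of replicate 2. In neither list were 160 members (62.7%, interval 56.5% to 68.7%), against 57.1% of all conservative peaks. The share in both lists was 9.94% for promoter peaks, 11.97% for other genic peaks, 2.13% for coding exon peaks and 53.0% for peaks at small RNA genes, so the distal peaks stood between the coding exon and small RNA classes on this measure. Their interval did not overlap that of coding exon peaks (0.694% to 4.89%), that of promoter peaks (7.02% to 13.6%) or that of small RNA peaks (48.2% to 57.8%). It overlapped that of other genic peaks (8.28% to 16.6%). These intervals cover counting of peaks only, as do all those below.

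**Figure D1:**
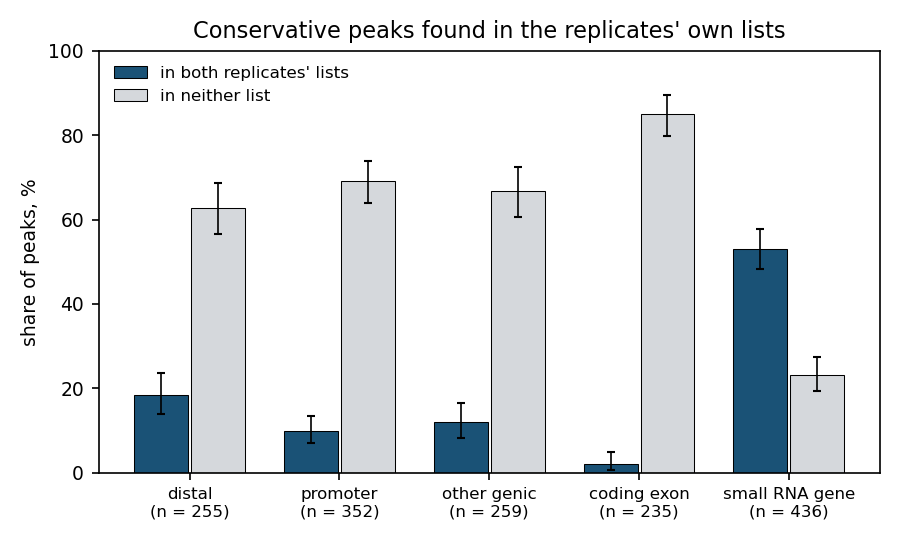
Share of conservative peaks of each location class (x axis, number of peaks in brackets) that overlap a peak in both replicates' own lists or in neither, in percent, with exact 95% intervals as error bars. Distal peaks have 18.4% in both lists, above coding exon peaks at 2.13% and below small RNA gene peaks at 53.0%.

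Among the members in both lists the median signal was 151, and among those in neither list it was 82.0. Of the 50 members of highest signal 39 were in both lists, and of the 50 of lowest signal 1 was. The lists differ in threshold and were made separately, so a member missing from a replicate's list may still have an enriched peak there.

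**Figure D2:**
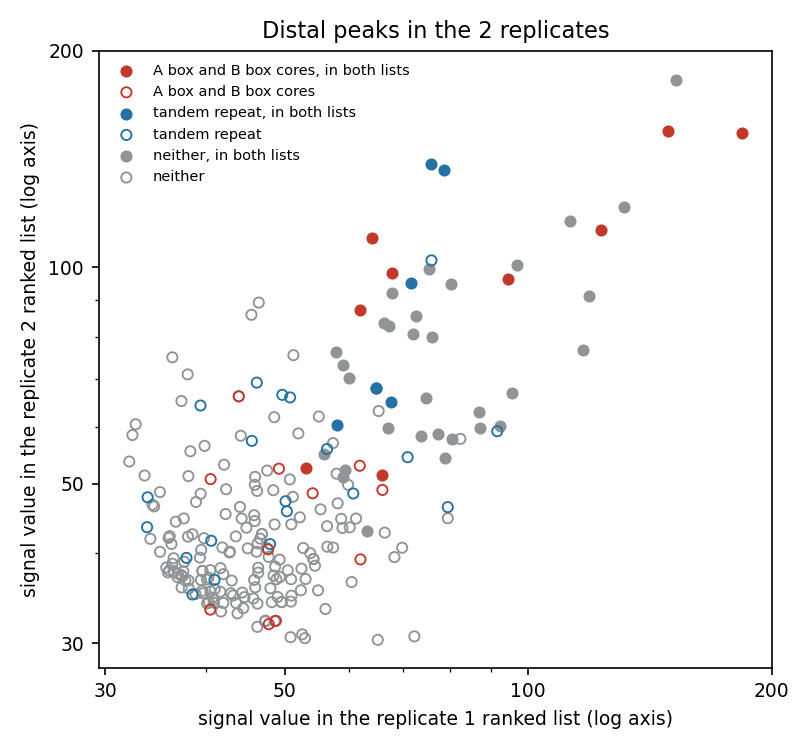
Signal value of each distal peak in the ranked list of replicate 1 (x axis, log scale) and of replicate 2 (y axis, log scale) for the 246 members with both. Red marks members with an A box and a B box core, blue those in a tandem repeat and grey the others, and filled points are in both replicates' own lists. Filled points lie towards the upper right.

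The strongest distal peak was at chrIV:2740141-2740303, with a signal of 335 in the conservative list, 184 in replicate 1 and 154 in replicate 2. Its summit lay in the tRNA pseudogene Y94H6A.t1 (chrIV:2740214-2740286, RefSeq), with the nearest coding 5′ end 2772 bp away at nhr-277, a nuclear hormone receptor gene. The peak at chrV:1561289-1561450 had a signal of 304 (149 in replicate 1 and 154 in replicate 2). It lay 5688 bp upstream of cdc-25.2, which encodes a cell cycle phosphatase, and carried the same pair of boxes. The third, at chrI:10462606-10462885 with a signal of 301 (152 and 182), lay 7068 bp upstream of Y106G6H.9. In each replicate these 3 peaks had the highest values of all distal peaks.

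The next members were weaker. The peak at chrII:5353836-5353936 (signal 252) lay 161 bp past the 3′ end of F09E5.7, that at chrI:852155-852283 (230) lay 1221 bp upstream of zfr-1, and that at chrII:7042303-7042374 (217) lay between cin-4 and tcer-1, a transcription elongation regulator gene. Then came neighbouring peaks at chrIII:2499334-2499613 (212) and chrIII:2497845-2498124 (211), both inside a tandem repeat between Y54F10AL.1 and Y54F10AM.8. The peak at chrIV:8412713-8412822 (210) lay between sdz-25 and M116.5. The remaining 6 of the 15 strongest were at chrV:7548581-7548860 (207), 1142 bp upstream of the ferritin gene ftn-1, at chrV:15767482-15767761 (198) beside F57A10.2, at chrV:13239808-13240087 (189), 3341 bp upstream of the DM domain gene dmd-10, at chrIV:2665639-2665918 (185), 1271 bp upstream of Y69A2AR.1, at chrIII:9110894-9111173 (183), 1762 bp upstream of cya-1, a cyclin A gene, and at chrIII:2030817-2031096 (175), 9362 bp upstream of ckr-2, a neuropeptide receptor gene. Of these 15 members 14 were in both replicates' lists. The exception was the peak upstream of ckr-2, which was in the list of replicate 1 with a ranked signal of 78.5 there and had no overlapping ranked peak in replicate 2.

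The 5 weakest members had signals from 2.53 to 18.9, at chrII:435429-435708 (2.53), chrX:17444875-17445154 (3.49), chrIII:9849414-9849693 (4.54), chrV:6344894-6345173 (15.2) and chrX:6254034-6254313 (18.9). All 5 overlapped a stronger member, as did 1 more with a signal of 35.1, and their values in the replicates' lists can be those of the neighbour. For chrX:17444875-17445154 the replicate values of 64.9 and 68.0 were those of the adjacent peak at chrX:17444670-17444949 as well. Of all members 247 were 280 bp wide.

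At each limit of the rule the signals of the members and of the peaks just beyond it overlapped. The members nearest a coding gene end lay 4, 16 and 73 bp away with signals of 62.9, 107 and 128, and the peaks just inside a gene, 2, 20 and 28 bp from its end, had 14.9, 70.9 and 58.7. The members nearest the upstream limit lay 1006, 1011 and 1022 bp from a 5′ end with 89.3, 94.9 and 116, and the promoter peaks nearest to it, at 989, 986 and 977 bp, had 113, 254 and 75.5. The members nearest a small RNA gene lay 203, 526 and 565 bp away with 84.3, 105 and 85.7, and the peaks just within that limit, at 198, 186 and 102 bp, had 87.8, 12.6 and 65.8.

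Tandem repeats were a feature of the distal peaks. A summit was counted when at least 80% of the 280 bp around it equalled the base 1 period further on, for a period from 6 to 100 bp. Of the members 28 (11.0%, interval 7.42% to 15.5%) passed, where 2.41% of all conservative peaks did. The other 1282 peaks held 9 (0.702%, interval 0.321% to 1.33%), of which 2 were promoter peaks and 7 other genic peaks, and windows of the same length across the distal sequence passed in 1.90%. The 28 members had a median signal of 109 (3.49 to 212), and 7 were in both replicates' lists. The measure was chosen after the values were seen.

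Several tandem repeats occurred under more than 1 member. A group of 8 members on I, IV, V and X shared the unit of 40 bp shown above with a median identity of 92.2%, and 7 of them passed as tandem repeats. Its highest was chrIV:15059202-15059481 (signal 161, 71.6 in replicate 1 and 95.2 in replicate 2), and 2 of the 8 were in both lists. The motif TTCNNGAA itself was not more frequent under members than around them, with 5.10% of summits against 8.24% of flanks centred 300 bp away, 2.65% of the other peaks and 6.68% of distal windows, and 7 of its 13 members were tandem repeats. A second group of 8 members on I, II, IV and X had a high GC content, with a median of 60% in 100 bp at the summit, and 4 of them sat in 1 run at chrII:695137-698734 between T02H6.3 and T02H6.11 (signals from 87.2 to 154). The third group, of 5 members on I, III and V, held the neighbouring peaks near Y54F10AM.8 and the peak 5314 bp upstream of unc-87, a muscle calponin-like gene, which had a signal of 166. All 5 of this group were in at least 1 replicate's list, and 3 were in both.

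Most copies of these repeats held no conservative peak. Peaks left out of that list, described in the next paragraph, were not counted here. A place without a conservative peak may therefore hold one of them. The sequence shared by the first group was found at 503 places in the genome, of which 9 held a conservative peak. That of the second was at 212 places with a peak at 8, and that of the third at 53 places with a peak at 5. Places with a peak were longer, with a median of 639 bp against 191 bp for those without in the first group, 537 against 168 bp in the second and 2021 against 589 bp in the third. The members were the starting sequences of this search, so their own places are among those with a peak. A member matches itself over its whole shared stretch, and a longer place has more room for a summit. The search thus sets part of the difference in length, and nothing is concluded from it.

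The authors' thresholded list left out 30 distal peaks with a signal above that of every member. In the ranked list from which the conservative list was drawn, 376 distal peaks had an IDR (irreproducible discovery rate, a measure of how far a peak's rank fails to repeat between replicates) of 0.01 or less, and 121 of these are not in the conservative list. Over all locations 141 ranked peaks at that IDR are not in it, so 85.8% of the peaks left out were distal. Of the 121, 80 (66.1%) passed as tandem repeats, 67 (55.4%) had a 50-bp sequence at the summit that occurs more than once in the genome, and none had an A and a B box core. Their signal had a median of 175 (53.1 to 4492) in the ranked list, against 88.2 for the members, and 30 of them stood above the highest member. The strongest were at chrX:15810945-15811213 (4492), chrX:15808089-15808292 (1375), chrX:293330-293504 (1314) and chrV:5284057-5284285 (1122). Per the deposited notes the thresholding also used 1 more file, and no source read here tells what it holds. With these peaks included the share of tandem repeats among distal peaks was 28.7% (108 of 376).

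**Figure D3:**
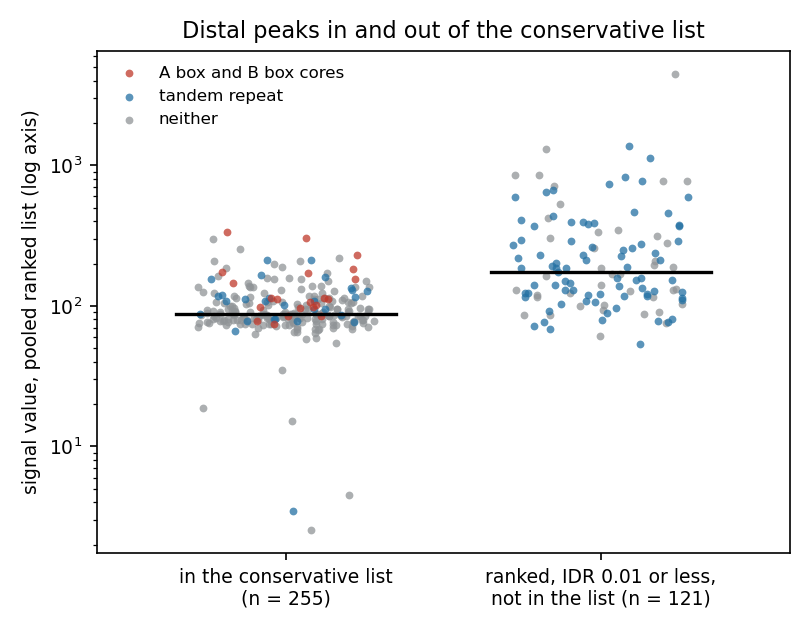
Signal value (y axis, log scale) of the 255 distal peaks in the conservative list and of the 121 distal peaks at an IDR of 0.01 or less that are not in it, one point per peak, with the median as a line. Tandem repeats (blue) make up 28 of the points on the left and 80 of those on the right, where values reach 4492.

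The pair of box cores known from tRNA genes was found at distal summits about as often as over all peaks. An A box core followed by a B box core 20 to 90 bp further on, within 200 bp at the summit, was found in 21 members (8.24%, interval 5.17% to 12.3%), where 8% of all conservative peaks and 7.96% of the other 1282 had it. Among the other classes the pair was found in 1.42% of promoter peaks, 5.41% of other genic peaks, none of the coding exon peaks, which allows a share of up to 1.28% (3 counts), and 19.0% of small RNA peaks, and in 0.240% of windows of the same length across the distal sequence. Of 612 nuclear tRNA genes 96.1% had the B box core, 21.6% the A box core and 18.6% the pair, so the pair finds only part of such genes. The B box core by itself, in 100 bp at the summit, was less frequent in members than in the other peaks. It was found in 9.8% of members, 21.5% of other peaks, 4.9% of flanks and 3.33% of distal windows. The cores and their spacing were chosen after the values were seen. The starts of the 2 cores lay 44 to 54 bp apart (median 45), and the A box lay a median of 13 bp from the summit.

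The 21 members with the pair had a median signal of 113 (74.6 to 335), and 9 of the 21 (42.9%) were in both replicates' lists. The 206 members with neither the pair nor a tandem repeat had a median of 86.5, and 31 of them (15.05%) were in both. By sequence alignment 27 members resembled an annotated tRNA pseudogene over at least 50 bp (identity 74.6% to 100%, median 88.7%), and 11 of the 27 were in both lists. This alignment was made for the members only. No share over all peaks or distal windows stands beside the 27, so whether they are more than usual was not tested. The summits of 2 members lay at a pseudogene annotated by RefSeq, the strongest peak at Y94H6A.t1 and chrIII:3112069-3112348 (signal 74.6, in neither list) at Y53G8B.t9. For 17 of the 27 the closest pseudogene was Y94H6A.t1.

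These 17 members formed the largest group of shared sequence. They lay on all 6 nuclear chromosomes, had a median pairwise identity of 88.9%, and had signals from 84.3 to 335, with 8 in both replicates' lists and 6 in neither. After the peaks near nhr-277, cdc-25.2 and sdz-25 came chrX:13973161-13973440 (171, 2352 bp upstream of F48F7.5), chrX:351477-351756 (157, 2002 bp upstream of sor-3) and chrII:4928398-4928677 (145, 3290 bp upstream of aagr-2). The shared sequence was found at 89 places, of which 28 held a conservative peak, 17 of these distal, 9 other genic and 2 promoter. Of the 39 places with both box cores 21 held a peak (53.8%), and of the 50 places without them 7 did (14%). In the other groups with such places the share varied. The pair of members on III that includes the peak at Y53G8B.t9 resembled 66 places with both cores, of which 2 held a peak (3.03%), and a group of 6 members had a peak at 1 of 10 such places, a group of 3 at 2 of 4 and another pair at 1 of 1. The 17 members are among the 89 places because the search began from them, and 14 of the 17 had the box pair. The search itself thus raised the share with a peak among places with both cores.

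Other members resembled other small RNA genes. The peak at chrII:7042303-7042374 (signal 217, 112 in replicate 1 and 116 in replicate 2) was 94.9% identical over 117 bp to the snoRNA gene Y6B3B.15 on chromosome I, and the nearest annotated tRNA, snoRNA or snRNA gene, which is a tRNA gene, lies 38969 bp away. The peak at chrX:14477462-14477741 (109) was 88.5% identical over 78 bp to the snRNA gene M163.13, which lies 656 bp away. The peak at chrIV:11026060-11026339 (156, in both lists) overlapped the precursor gene of the microRNA mir-51. The member whose nearest coding 3′ end was that of mrpl-40, at chrIII:89193-89472 (137, in both lists), aligned to a tRNA pseudogene with 74.6% identity over 71 bp.

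**Figure D4:**
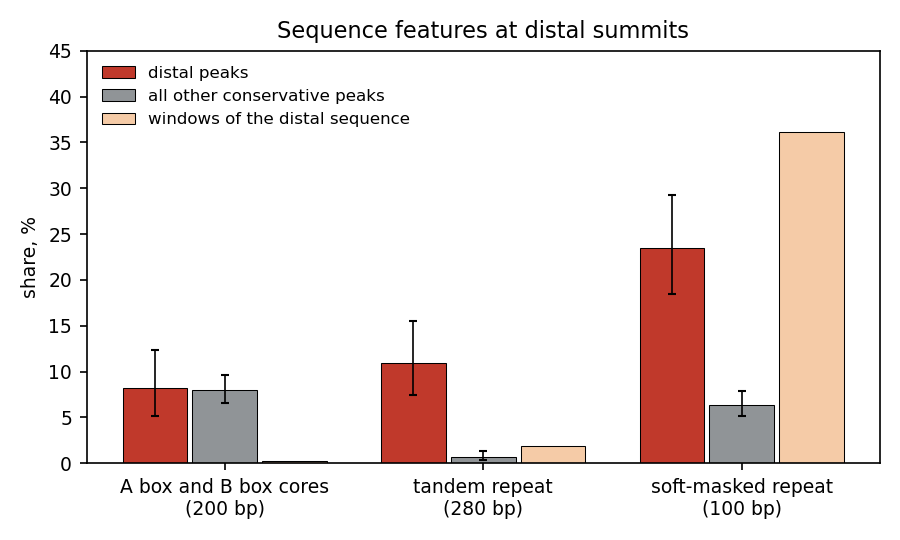
Share of distal peaks, of all other conservative peaks and of windows of the same length across the distal sequence (y axis, percent) with each feature named on the x axis; error bars are exact 95% intervals for peaks. Tandem repeats reach 11.0% of distal peaks against 0.702% of other peaks, and the box pair is far rarer in distal windows (0.240%) than at distal summits (8.24%).

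Shared sequence went beyond these groups, at a share near that over all peaks. By alignment of 280 bp at each summit, over at least 50 bp, 93 of the 255 members (36.5%, interval 30.6% to 42.7%) resembled another member elsewhere in the genome, in 14 groups of 3 or more and 9 pairs. In the same search among all 1537 conservative peaks, 109 members (42.7%, interval 36.6% to 49.1%) resembled another peak of any class, where 41.5% of all conservative peaks and 41.3% of the other peaks did. That share was 17.0% for promoter peaks, 36.7% for other genic peaks, 6.38% for coding exon peaks and 82.3% for small RNA peaks. Of the 93, 32 (34.4%) were in both replicates' lists and their median signal was 101.1. The 4 members on chromosome V shown above had signals of 207, 198, 189 and 131 and were all in both lists. They had a median identity of 94.95%, no soft-masked base in the 100 bp at the summit, and 23 places in the genome with a peak at 11, of which 6 were other genic and 1 promoter. The fourth lay in the noncoding RNA gene K02E11.15. Another group of 4 members on II and IV, with chrIV:9196299-9196578 (156) and chrIV:4725470-4725749 (139) the highest, had 7 of 26 places with a peak. At the other end, a group of 6 members on I, III, V and X resembled 2710 places, of which 15 (0.554%) held a peak, and none of the 6 was in both lists.

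Distal peaks of the conservative list were less often soft-masked than windows across the distal sequence. In the reference 23.5% of members (60 of 255, interval 18.5% to 29.2%) had at least 50% of the 100 bp at the summit soft-masked, which marks repeats, where 9.24% of all conservative peaks did. The share over all 100-bp windows of the distal sequence was 36.1%, above the members' interval, and that over the other conservative peaks was 6.40%. With the 121 left-out peaks added the share was 45.2% (170 of 376), so the direction against the distal windows turned. Of the 60 masked members 25 were tandem repeats. The 50 bp at the summit occurred once in the genome for 216 members, and the 39 others had a median signal of 108, with chrIII:2497845-2498124, chrV:7548581-7548860, chrV:13239808-13240087, chrI:6772971-6773250 (166) and chrIV:4725470-4725749 the highest among them. Copies were counted for members and left-out peaks only, so no share over all conservative peaks stands beside these counts.

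Summits were richer in G and C than the sequence beside them. The median GC content of 100 bp at the summit was 48% (quartiles 44% and 54%), against 35% in flanks centred 300 bp away and 33% in windows of the distal sequence. The other peaks had 51% at the summit and 36% in the flanks. Members in tandem repeats had a median of 46.5%, members with the box pair 47% and members with neither 48.5%. The lowest value was 22%, and the highest was 70%, at chrIII:1439647-1439926 in a pseudogene.

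**Figure D5:**
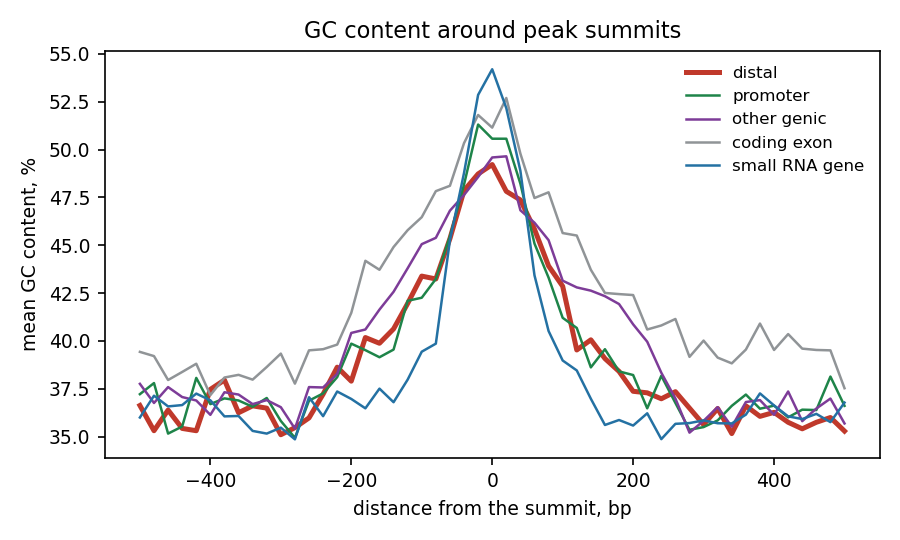
Mean GC content in percent (y axis) by distance from the summit in bp (x axis) for the 255 distal peaks (thick red line) and the other location classes. Every class is highest within 20 bp of the summit, the distal peaks at the summit itself with 49.2%.

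Some short motifs differed in frequency between summits and flanks. GAGAGA was found on either strand in 100 bp at the summit of 47 members (18.4%), against 6.47% of flanks, 10.9% of the other peaks and 5.27% of distal windows, and 1 of the 47 was a tandem repeat. After the strongest peak, its highest were chrX:351477-351756 (157), chrX:16932377-16932656 (138), chrV:11076434-11076713 (137) and chrIII:8865451-8865730 (123). CCGCCC was found in 15 members (5.88%), 1.76% of flanks, 7.18% of other peaks and 1.59% of distal windows. The AT-rich TAATTA was found in 0.784% of members, 6.86% of flanks, 1.25% of other peaks and 5.18% of distal windows, and TTTTTTT in 5.10%, 18.4%, 5.69% and 24.2%. ACAATGT, a core of the sites that DM domain proteins bind, was found in 2 members (0.784%), 2.16% of flanks, 0.936% of other peaks and 1.79% of distal windows. GTTCGA, core letters of the B box, was found in 7.45% of members, 7.06% of flanks, 17.5% of other peaks and 3.33% of distal windows, and CTGTTTC, the core of the motif upstream of piRNA genes, in 1.57%, 1.37%, 1.25% and 2.56%. Summits were richer in G and C than flanks and distal windows, and base composition was not matched in these comparisons. A match is a description of the letters in the window.

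Annotated noncoding genes held a minority of the summits. Of the members 46 (18.0%, interval 13.5% to 23.3%) lay inside an annotated noncoding RNA gene or pseudogene, where such genes cover 13.7% of the distal sequence. Genes annotated simply as ncRNA held 25 members (9.80%, interval 6.45% to 14.1%) and cover 1.67% of the distal bases, and pseudogenes held 18 (7.06%, interval 4.24% to 10.9%) and cover 10.7%. The ncRNA genes with the highest peaks were F36H1.17 (156), beside mir-51, C30E1.9 (138), T04C12.14 (137), where the peak lies between the actin genes act-3 and act-2, K02E11.15 (131) and M163.12 (109). The members in ncRNA genes had a median signal of 83.9, and 3 of the 25 were in both lists.

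The 3 members in lincRNA genes were at linc-128 (chrV:1151362-1151641, signal 129, in both lists), Y9D1A.1 (chrII:7446720-7446999, 101, in the list of replicate 1) and linc-129 (chrIII:10818399-10818678, 89.3, in neither list). After the strongest peak, the highest members in pseudogenes were at chrV:15454458-15454737 (158), chrX:1837777-1838056 (104), chrIV:8850898-8851177 (95.7) and chrIV:14208433-14208712 (94.8). No summit lay in a piRNA, miRNA, antisense RNA or rRNA gene, which allows a share of up to 1.18% of the members (3 counts). Those in no annotated gene numbered 209.

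Distal peaks lay towards the 3′ ends of coding genes more often than the distal sequence does. Within 500 bp past a coding 3′ end were 57 members (22.4%, interval 17.4% to 28.0%), against 13.9% of the distal bases. Between genes that converge on each other were 69 (27.1%, interval 21.7% to 33.0%), against 16.5% of the bases. Between genes that diverge were 53 (20.8%, interval 16.0% to 26.3%), against 29.8%. Genes that point the same way flanked 133 (52.2%), against 53.4%. More than 2000 bp from any coding gene were 95 (37.3%, interval 31.3% to 43.5%), against 47.0% of the bases. Base composition differs between these places and was not matched.

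The members just past a 3′ end had a median signal of 88.2, equal to that of all members, and 10 of the 57 were in both lists. The strongest after F09E5.7 and F57A10.2 lay past alh-3 (330 bp, the peak at mir-51), C46C2.7 (363 bp, signal 156), K08F11.1 (297 bp, 139), act-2 (203 bp, 137), F54H12.2 (317 bp, 137) and mrpl-40 (90 bp, 137).

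By chromosome there were 33 members on I, 36 on II, 43 on III, 39 on IV, 54 on V and 50 on X. The share on X was 19.6% (interval 14.9% to 25.02%), where 19.2% of all conservative peaks and 22.7% of the distal bases were on X. On III lay 16.9% (interval 12.5% to 22.0%), against 11.2% of the distal bases, and on IV 15.3% (interval 11.1% to 20.3%), against 20.03%. The share of all conservative peaks was counted for X only, so whether III and IV differ for distal peaks in particular was not tested. Members within 5000 bp of each other formed 21 runs with 47 members in all. These include the 6 members that overlap a stronger member, so some runs hold only a peak and the weaker one that overlaps it. The largest held the 4 tandem repeat peaks on II. A run of 3 at chrIII:2030817-2032092 held the peak upstream of ckr-2, and another of 3 at chrIII:2494817-2499613 held a copy of the tRNA-like sequence beside both tandem repeat peaks near Y54F10AM.8.

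Members with no shared sequence, box pair, tandem repeat, noncoding gene or masked summit, and with a 50-bp summit sequence that occurs once, numbered 103 (40.4%). Likeness to small RNA genes and short motifs were not part of this choice. The 103 thus include the member at chrIII:89193-89472, which aligned to a tRNA pseudogene. Over the 103 the median signal was 85.7 (18.9 to 185), 11 (10.7%) were in both lists and 73 (70.9%) in neither, and the median GC content was 48%. The highest was the peak at chrIV:2665639-2665918. This peak aligned to the tRNA pseudogene Y22D7AL.t1 with 81.25% identity over 48 bp. It was followed by chrX:11094076-11094355 (171), chrX:4209137-4209416 (163), which lay between F20B6.9 and hpk-1, a homeodomain-interacting protein kinase gene, and chrX:16681924-16682203 (137).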

How the data were processed

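The worms, the antibody and both replicates are those described in the opening, and the comparisons are between positions, with no test over samples, since there is 1 group of 2. The deposited peak lists are on ce11, per the labels. Each gives the authors' signal value per peak from the peak caller and, in bp, the summit offset, a quantity of another kind that the authors' deposited lists hold beside it. The ranked lists also give a deposited score, set from the IDR, and its −log10. Aligner, peak caller and settings: not given in the sources used here. The control's data were not analysed here. Per the deposited notes, the conservative list was made from both replicates. The replicates' own lists held 629 peaks (replicate 1) and 545 (replicate 2), and precision is limited by the number of peaks.

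Genes came from Ensembl release 115, and sequence, soft-masking and tRNA pseudogenes from RefSeq for the same assembly. Classes were assigned in the order small RNA gene, promoter, coding exon, other genic, distal. Shares have exact Clopper-Pearson 95% intervals. Replicate signals are those of the ranked peak with the nearest summit among those that overlap. Tandem repeats, box cores (TGGCNNANT, GTTCNANNC) and TTCNNGAA were searched on both strands, where strand applies. The 9-letter box cores hold the 7-letter TGGCNNA. Alignments used blastn 2.17.0 (E-value at most 1e-06, at least 50 bp, no low-complexity filter), and members whose 280-bp windows overlap were not paired. The searches were tested on simulated data. Python 3.11.15, numpy 2.4.6, scipy 1.17.1, networkx 3.6.1 and matplotlib 3.10.9 were used.

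The members, motifs and features were chosen with earlier results of these data known. Named were the 15 members of highest and the 5 of lowest signal, the 3 on each side of each limit, those in lincRNA and miRNA genes or at tRNA pseudogenes, and the 5 highest in each other noncoding class and for each feature. As alternatives the optimal list, either replicate's list by itself, peaks of higher signal, other distances and windows, the peak centre and other overlap rules were used.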

Additional observations from a re-analysis of the deposited data

How the results depend on the processing

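The share of conservative peaks that are distal was 13.5% to 15.7% with either replicate's list alone, 21.1% with 500 bp and 11.8% with 2000 bp upstream, and 22.4% over all ranked peaks at an IDR of 0.01 or less, an alternative chosen after seeing the data. Over those ranked peaks the share of distal peaks in both replicates' lists was 12.5%, in a noncoding gene 12.2%, masked 45.2% and in a tandem repeat 28.7%. With only peaks above the list's median signal, 38.3% were in both lists, 10% in a noncoding gene, 15.8% in a tandem repeat and 14.2% had the box pair. With a single replicate's list, 56.5% to 56.6% of its distal peaks were in the other's list, 10.8% to 15.3% in a noncoding gene, 12.9% to 16.9% in a tandem repeat and 13.3% to 15.3% had the box pair. A noncoding gene within 200 bp was found for 23.9%, any masked base for 61.2%, and shared sequence over at least 150 bp for 25.5%. The cause of these shifts was not tested beyond what each alternative changes. The other 58 of 79 recomputed values stayed inside the exact 95% interval of the reported share or, for GC content, within 1 SD over members, and the median GC content ranged from 46% to 49%. No paired analysis was possible because there is a single group. Read depth is unknown, so a member missing from a replicate's list is not shown to be absent there, and intervals cover counting of peaks only.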

Other observations

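Among the 57 members within 500 bp past a coding 3′ end, 6 (10.5%) lay past a ribosomal protein gene, whereas 0.252% of the distal bases past coding 3′ ends lie past such genes, which number 78 of 19973 coding genes. These genes were picked out after their values were seen. The peaks lay past rps-6 (99 bp, signal 136), rpl-7A (73 bp, 128), rpl-31 (178 bp, 118), rps-27 (175 bp, 104), rps-9 (119 bp, 85.3) and rpl-21 (294 bp, 72.7). The replicate values were 74.8 and 65.8 for rps-6, 45.5 and 85.8 for rpl-7A, 59 and 51 for rpl-31, 57.4 and 56.9 for rps-27, 38.03 and 51.2 for rps-9 and 38.8 and 35.1 for rpl-21, in replicate 1 and replicate 2. Those past rps-6 and rpl-31 were in both replicates' lists, those past rpl-7A, rps-27 and rps-9 in that of replicate 2, and that past rpl-21 in neither. GC content at these summits was between 33% and 54%.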
